A study of Mus musculus with 9 samples.

Results

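The genes described here are 33 members of the chaperone and heat shock families of the mouse. They are 7 genes of the Hsp70 and Hsp110 families, 5 of Hsp90 and its co-chaperones, 6 Hsp40 genes, 3 small heat shock genes with the co-chaperone Bag3, 3 mitochondrial chaperones, 7 subunits of the CCT chaperonin and the transcription factor Hsf1. They were taken by gene symbol from a table of 33299 RefSeq transcripts, in which they had 49 rows, and they make up 33 of 23798 genes. All 33 passed the filter on low values, which asked for a mean of 1 or more on the log2 scale in the TG libraries. The working name of the set is cytosolic chaperones, but Hspa9, Hspd1 and Hspe1 act in mitochondria, and Hsf1 and Bag3 are not chaperones themselves. RNA was sequenced from mouse brain with a kit that reads the 3′ ends of mRNAs, after extraction with a kit for formalin-fixed, paraffin-embedded material. The 9 libraries form 3 groups of 3: WT mice on placebo, mice of a genotype called TG on placebo, and TG mice on an agent called NM-101. The series concerns alpha-synuclein that neurons make and its effects on oligodendrocytes. The labels used here give no transgene, promoter, age, sex, dose or duration, do not say what NM-101 is, and do not say whether the samples of a group are separate animals. The p-values therefore rest on the spread among these samples alone, and that spread may be technical.

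Chaperones bind proteins that are unfolded or newly made, and most use cycles of ATP binding and hydrolysis to release them folded. Small heat shock proteins instead hold unfolded clients without ATP. Hsp70 binds short exposed stretches of a client, Hsp40 proteins bring clients to it and start its ATPase, and Hsp110 proteins exchange its nucleotide. Hsp90 takes over clients that are nearly folded, such as kinases and steroid receptors, with co-chaperones that set the order of steps. The chaperonins CCT, in the cytosol, and Hspd1 with its lid Hspe1, in mitochondria, enclose a client in a chamber. Hsf1 switches on many of these genes under heat or protein stress. In neurons Hspa8, its Hsp40 partners and Hsp110 are known for taking apart clathrin coats and alpha-synuclein fibrils, and Cryab is abundant in oligodendrocytes and astrocytes.

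The WT columns held raw counts, with 10612290, 14041951 and 11774367 reads. The TG columns held values that fit log2(FPKM + 1), fragments scaled to transcript length and library size, so their depth is unknown. For levels across all groups, WT counts were divided by depth and transcript length and given as log2(RPKM + 1). Columns normalized separately cannot enter 1 test, and differences from WT below are descriptions of these libraries. The samples are labelled as oligodendrocytes, but neuron markers were abundant too. The median of 12 neuron markers was 7.31 to 7.55 over the 9 libraries, and that of 14 oligodendrocyte markers 5.18 to 6.49. The summed level was 11.75 to 12.09 for neuron markers and 10.67 to 12.31 for oligodendrocyte markers, and the oligodendrocyte sum was the larger in WT replicate 3, TG placebo replicate 1 and NM-101 replicate 1. TG placebo replicate 1 differed from replicates 2 and 3 of its group. Its oligodendrocyte marker median was 6.49 against 5.30 and 5.18, its summed level of nuclear-retained RNAs was 7.63 against 10.2 and 10.4, and its summed level of choroid plexus markers was 12.2 against 3.62 and 4.12. For nuclear-retained RNAs placebo replicates 2 and 3 were the ones apart from the other groups. WT libraries were at 6.84 to 7.53 and NM-101 libraries at 8.27 to 8.64. Placebo replicates 2 and 3 had the lowest oligodendrocyte marker medians of the 9 libraries, and placebo replicate 1 the highest. WT medians were 5.42 to 6.29 and NM-101 medians 5.44 to 6.03. Placebo replicate 1 also had the highest choroid plexus sum, with WT replicate 1 next at 11.58. The results that changed most without TG placebo replicate 1 are given with and without it.

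NM-101 was set against placebo within TG mice to ask what the agent changed there. Of the 33 chaperone genes, 0 passed the threshold, an adjusted p under 0.05 in limma's moderated test, where 0.134% of all 12699 genes tested did (0.102% higher and 0.0315% lower). Before adjustment 5 had a p under 0.05 (4 with a positive and 1 with a negative difference), where 14.8% of all genes had one. Hspe1, the lid of the mitochondrial chaperonin, had the smallest p of the 33. Its difference was positive, as were those of Hspb8, a small heat shock gene, and of the CCT subunits Tcp1 and Cct4, and that of Hsf1 was negative. The difference was above 0 for 25 of the 33, where 55.5% of all genes had one above 0. That count fell to 20 without TG placebo replicate 2, TG placebo replicate 3 or NM-101 replicate 1. All genes were then at 55.4%, 56.3% and 55.4%. The count was 26 without TG placebo replicate 1, 24 without NM-101 replicate 2 and 27 without NM-101 replicate 3. The median difference of the 33 was 0.05 on the log2(FPKM + 1) scale, and that of all genes 0.03. The median of the 33 was 0.10 without TG placebo replicate 1, 0.02 without TG placebo replicate 2, 0.07 without NM-101 replicate 3 and 0.02 with median-ratio scaling. Marker lists of cell types and of RNA quality differed between the groups too. Of 6 nuclear-retained RNAs tested 1 was above 0 (median -1.02), with summed levels of 7.63, 10.16 and 10.43 under placebo and 8.64, 8.61 and 8.27 under NM-101. Of 14 oligodendrocyte markers 12 were above 0 (median 0.16), with sums of 10.67 to 12.31 under placebo and 11.06 to 11.92 under NM-101. All 9 astrocyte markers were above 0 (median 0.39), with a summed level of 9.54 to 9.83 under placebo and 10.05 to 10.28 under NM-101. Of 9 microglial markers 8 were above 0 (median 0.35), with sums of 8.14 to 8.24 and 8.51 to 8.52, and no marker of these lists was at 0 in all TG libraries. Endothelial and mural markers went the other way, with 2 of 10 above 0 (median -0.17). Of 12 neuron markers 7 were above 0 (median 0.01). Of 6 ependymal and choroid plexus markers tested 3 were above 0, and the 1 blood marker tested was below 0. The part of cell content and RNA quality in the chaperone values was not tested.

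All NM-101 libraries lay above all placebo libraries for Hspe1, Hspb8, Tcp1 and Cct4, which is 4 of 33 where 13.6% of all genes did so. They lay below all placebo libraries for Hspa2 alone, where 5.98% of all genes did so. Neither share is above the background. With the values rescaled by median ratios, 22 of the 33 were above 0, against 50.6% of all genes. Under that scaling the calls over all genes were 1 higher and 3 lower, in place of 13 higher and 4 lower.

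Without TG placebo replicate 1, limma called 3 of the 33, namely Hspe1, Hspb8 and Tcp1, all higher under NM-101. That fit called 17.8% of all genes, 9.6% in the higher direction. In it 15 of the 33 lay above both remaining placebo libraries, against 28.1% of all genes, and Hspa2 lay below them, against 23.1%. The 11 that joined Hspe1, Hspb8, Tcp1 and Cct4 were Bag3, Cct2, Cct5, Cryab, Dnaja1, Dnaja2, Dnajb6, Hsp90aa1, Hspa4l, Hspd1 and Hsph1. The fit sets NM-101 against placebo replicates 2 and 3 alone, and these had summed levels of nuclear-retained RNAs of 10.16 and 10.43, against 8.27 to 8.64 in the NM-101 libraries and 7.63 in placebo replicate 1. Their oligodendrocyte marker sums of 10.73 and 10.67 were below the 11.06 to 11.92 of the NM-101 libraries. Whether those differences had a part in the calls was not tested.

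**Figure D1:**
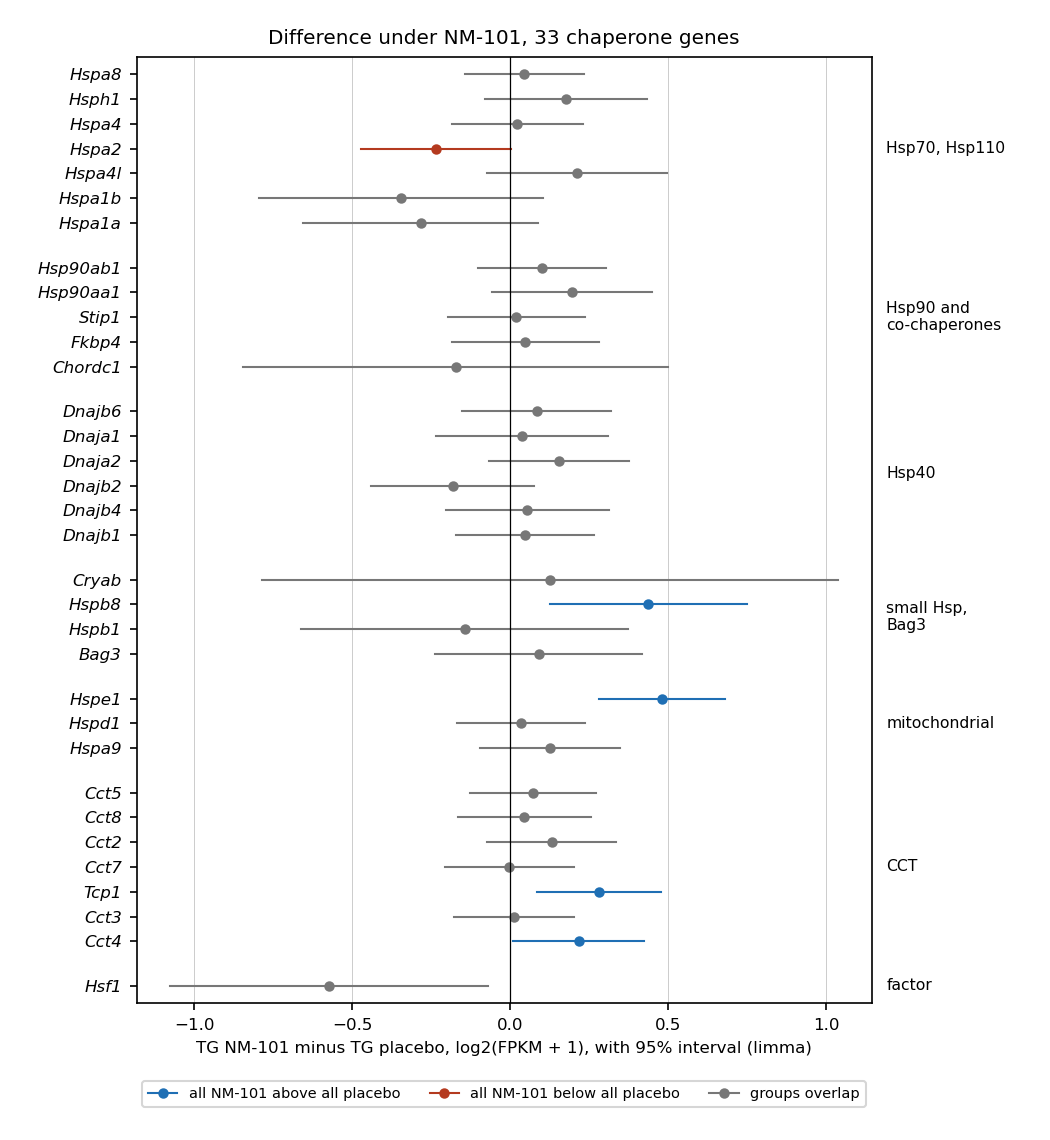
Difference between TG NM-101 and TG placebo for each of the 33 genes, on the log2(FPKM + 1) scale (horizontal axis), with the 95% interval of limma (n = 3 against 3), grouped by family. The intervals of Hspe1, Hspb8, Tcp1, Cct4 and Hsf1 leave out 0, before adjustment for 12699 genes tested.

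In WT brain these genes took up 9932.5 ± 293 CPM, counts scaled to library size (SD, n = 3). Hsp90 and its co-chaperones held 3857 ± 80.5 of these, Hsp70 and Hsp110 2926 ± 154, CCT 1329 ± 47.2 and Hsp40 1117 ± 35.0. The mitochondrial chaperones held 560.3 ± 19.6, the small heat shock genes with Bag3 125.8 ± 13.3 and Hsf1 16.8 ± 1.89 (SD, n = 3). Hspa8, Hsp90aa1 and Hsp90ab1, the main cytosolic Hsp70 and the cytosolic Hsp90 pair, together made up 56.9% ± 0.30 of all chaperone counts (SD, n = 3).

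Per length the order was led by Hspa8 at 9.83 ± 0.08, above all other members in every WT library. Hsp90ab1 (9.29 ± 0.08) and Hsp90aa1 (9.18 ± 0.07) overlapped each other and lay above the rest (log2(RPKM + 1), SD, n = 3). Below them came a dense middle from Dnajb6 at 7.01 to Cct4 at 5.88, where most neighbours overlapped. At the low end stood Hspb1 at 2.48 ± 0.31, Bag3 at 2.20 ± 0.16, and the stress-inducible Hspa1b at 1.82 ± 0.32 and Hspa1a at 1.54 ± 0.08 (SD, n = 3). Of the 32 pairs of neighbours in the order, 23 had overlapping ranges over the 3 WT libraries, so their order by means is not firm. Ranges ignore that both genes were read in the same library. Hspa1b, for 1, was above Hspa1a within each WT library, by 0.34, 0.01 and 0.48. Several of these genes, Hspa8 and Hspe1 among them, have processed pseudogene copies, and how reads that fit several places were counted is not given in the sources used. The SD over the WT libraries had a median of 0.09 and was 0.33 at most, for Chordc1. The order divides counts by transcript length although the kit reads 3′ ends, and counts alone gave another order in places. Hsp90aa1 had more counts than Hsp90ab1 in every WT library (19444, 28235 and 22083 against 17680, 20954 and 18426). Dnaja1 had a mean of 435 CPM and Dnajb6 one of 224 CPM.

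**Figure D2:**
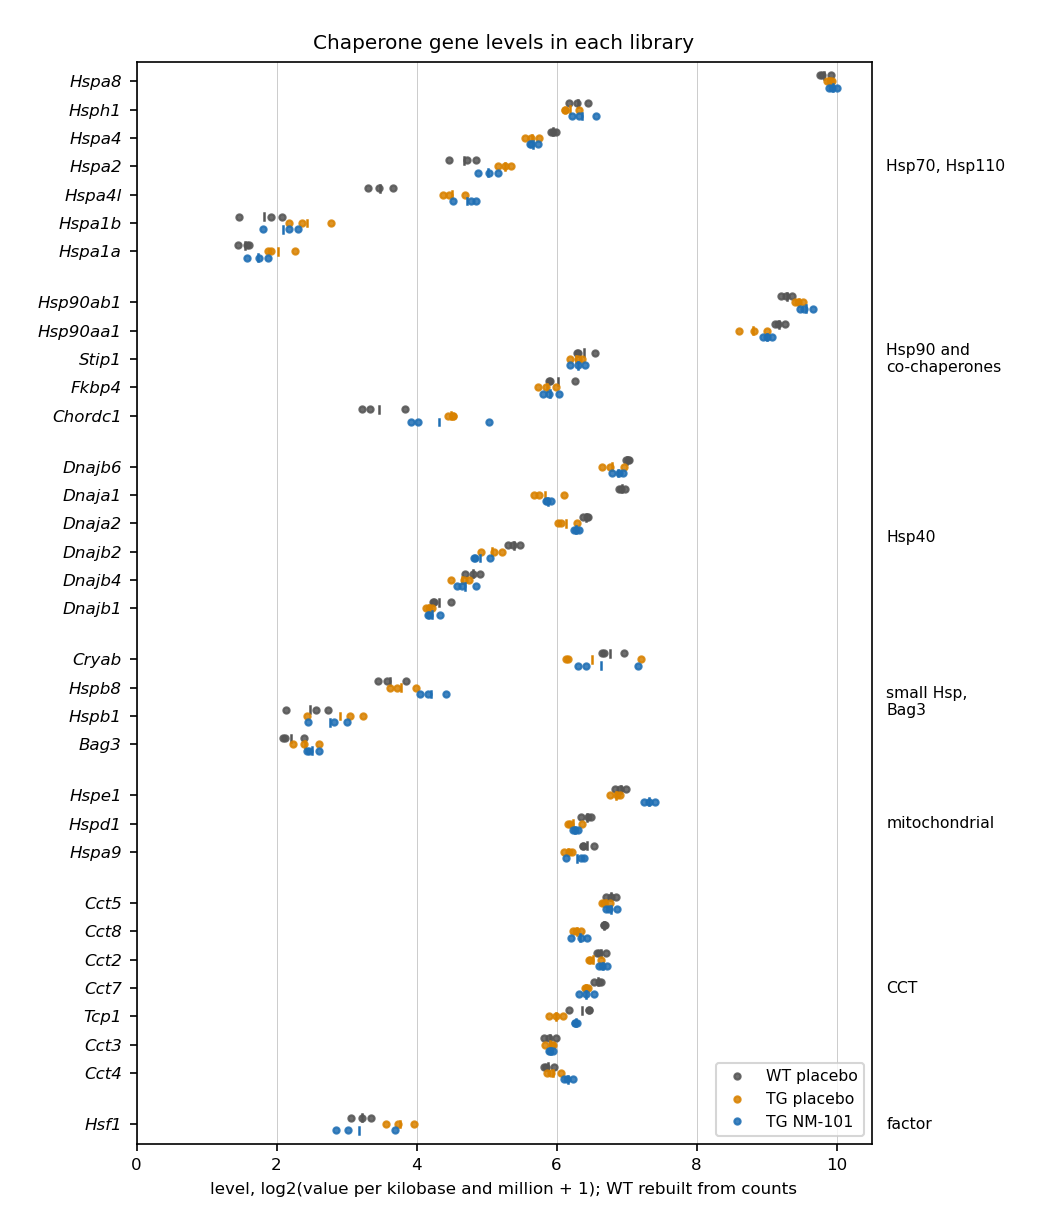
Level of each gene in every library, with WT placebo as log2(RPKM + 1) rebuilt from counts and the TG groups as deposited log2(FPKM + 1) (horizontal axis). Points are libraries and short vertical lines group means. Hspa8 and the Hsp90 genes lie apart at the top of each group, and the inducible Hspa1a and Hspa1b lie near the bottom, with Bag3 and Hspb1.

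Hspa8, the constitutive cytosolic Hsp70 that also uncoats clathrin vesicles, was the most abundant member per length in every library. Under placebo it was at 9.93, 9.86 and 9.90, and under NM-101 at 9.93, 10.01 and 9.89. The groups overlapped, and the difference was 0.05 with a 95% interval from -0.14 to 0.23 (limma adjusted p = 0.825, n = 3 against 3).

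Hspa1a and Hspa1b, near-identical copies of the main stress-inducible Hsp70, lie beside each other on chromosome 17, at 34969359 to 34972156 and 34956429 to 34959238 (GRCm38.p6). Their coding sequences of 1926 and 1929 bases, read as the longest open frame of GENCODE M21 transcripts, were 99.4% identical, and the sequence after them 47.3%. The kit reads 3′ ends, where the copies differ more, but how shared reads were counted is not stated, so each gene's value is uncertain. Their upstream regions are shown because they carry the same Hsf1-type match and differ at only 3 of 250 bases. Below are the 250 bases before each start from RefSeq (GRCm38.p6), at chr17:34972157-34972406 and chr17:34959239-34959488, both on the minus strand, with the match GAAGATTC, 104 bases before the start, in capitals.
Hspa1a: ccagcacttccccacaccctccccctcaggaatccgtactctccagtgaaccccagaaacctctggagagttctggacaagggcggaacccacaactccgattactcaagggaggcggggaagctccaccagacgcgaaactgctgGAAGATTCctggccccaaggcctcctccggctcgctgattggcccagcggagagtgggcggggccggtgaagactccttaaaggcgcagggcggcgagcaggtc
Hspa1b: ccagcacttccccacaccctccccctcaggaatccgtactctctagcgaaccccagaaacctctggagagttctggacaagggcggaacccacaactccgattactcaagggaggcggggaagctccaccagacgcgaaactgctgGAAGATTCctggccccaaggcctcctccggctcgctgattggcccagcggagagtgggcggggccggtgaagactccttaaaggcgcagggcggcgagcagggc

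Both copies were rare in WT, with 63, 72 and 71 counts for Hspa1a and 83, 69 and 107 for Hspa1b. Hspa1a was at 2.26, 1.87 and 1.92 under placebo and at 1.88, 1.74 and 1.58 under NM-101. Hspa1b was at 2.77, 2.36 and 2.18 under placebo and at 2.30, 2.17 and 1.80 under NM-101. For each copy the placebo mean was the higher and the groups overlapped. The differences were -0.28 (95% interval -0.65 to 0.09, limma adjusted p = 0.437) and -0.35 (-0.80 to 0.10, adjusted p = 0.432). TG placebo replicate 1 was the highest library for both, and without it the differences were -0.16 and -0.18. On the rebuilt scale every TG placebo library lay above every WT library for both copies, as for 20.8% of all genes, by 0.47 and 0.62 in the means.

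Hspa2, an Hsp70 best known from the testis, was the gene for which all NM-101 libraries lay below all placebo libraries. It was at 5.17, 5.34 and 5.27 under placebo and at 5.17, 5.03 and 4.88 under NM-101, so NM-101 replicate 1 all but met placebo replicate 1. The difference was -0.23 ± 0.10 (SE) and did not pass (limma adjusted p = 0.340). WT libraries were lower still, at 4.72, 4.46 and 4.84. Over all 7 genes of the class, 4 had a positive and 3 a negative difference under NM-101, with a median of 0.02, which was -0.01 after median-ratio scaling.

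Hsph1 and Hspa4 are Hsp110 proteins, the nucleotide exchange factors of Hsp70, and Hspa4l is their close relative. Hsph1 was at 6.33, 6.12 and 6.12 under placebo and at 6.56, 6.32 and 6.22 under NM-101, a difference of 0.18 (limma adjusted p = 0.482). Hspa4 differed by 0.02 and Hspa4l by 0.21 (adjusted p = 0.447). These differences were smaller than the spread allows to call. Hspa4l was about 1 log2 unit above WT in both TG groups, by 1.03 under placebo and 1.24 under NM-101. No source used here gives the transcript lengths behind the deposited FPKM, and a different length would shift a gene in both TG groups alike. The part of length in the Hspa4l difference was not tested.

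Hsp90ab1, the constitutive cytosolic Hsp90, was at 9.44, 9.53 and 9.41 under placebo and at 9.48, 9.67 and 9.53 under NM-101. The groups overlapped and differed by 0.10 (limma adjusted p = 0.612). Hsp90aa1, its inducible partner, was at 9.01, 8.61 and 8.82 under placebo and at 8.95, 9.07 and 9.00 under NM-101. Its placebo libraries were spread more widely than its NM-101 libraries (SD 0.20 and 0.06, n = 3), and the difference was 0.20 with a 95% interval from -0.06 to 0.45 (adjusted p = 0.427). It was 0.29 without TG placebo replicate 1 (adjusted p = 0.0741) and 0.10 without TG placebo replicate 2 (adjusted p = 0.857). The balance of the isoforms, Hsp90aa1 minus Hsp90ab1 within a library, was -0.24, 0.05 and -0.12 in WT. It was -0.44, -0.91 and -0.59 under TG placebo and -0.53, -0.59 and -0.53 under NM-101. Every TG library thus had a lower balance than every WT library, across columns normalized separately. The balance is one of values per length, and the lengths behind the TG values are not known. Between the TG groups the balance did not separate (exact two-sided permutation test, p = 0.70, n = 3 against 3, 0.70 adjusted over 3 pairs of genes).

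Stip1, which hands clients from Hsp70 to Hsp90, and Fkbp4, an immunophilin of steroid receptor complexes, differed by 0.02 and 0.05 between the TG groups (limma adjusted p = 0.938 and 0.850). Chordc1, an Hsp90 co-chaperone, was the most uneven member of the class. It was at 4.52, 4.45 and 4.52 under placebo but at 5.04, 4.02 and 3.92 under NM-101, so 1 NM-101 library lay above all placebo libraries and the other two below them. The mean difference of -0.17 had a 95% interval from -0.84 to 0.50 (adjusted p = 0.804), and without NM-101 replicate 1 it was -0.53. In WT its counts were 509, 1084 and 617, so replicate 2 stood out there as well after division by depth, at 3.84 against 3.21 and 3.33. In the means it lay 1.04 above WT under placebo and 0.86 under NM-101, a shift in both TG groups like that of Hspa4l.

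The 6 Hsp40 genes were close together between the TG groups, with differences from -0.18 for Dnajb2 to 0.15 for Dnaja2, and limma adjusted p-values of 0.469 or more. Dnajb1, the main heat-inducible partner of Hspa8, was at 4.22, 4.14 and 4.17 under placebo and at 4.33, 4.16 and 4.18 under NM-101. Dnajb6, known for holding back protein aggregates, was at 6.96, 6.77 and 6.65 under placebo and at 6.79, 6.89 and 6.95 under NM-101. Both genes overlapped between the groups, at differences of 0.05 and 0.08.

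Hsp40 genes were the class that lay below WT most often. All TG placebo libraries were below all WT libraries for 5 of the 6 (Dnaja1, Dnaja2, Dnajb1, Dnajb2 and Dnajb6), where 15.9% of all genes did so, with a class median of -0.26. For Dnajb1 and Dnajb6 the groups nearly met. The highest TG placebo and lowest WT libraries were at 4.225 and 4.229 for Dnajb1 and at 6.965 and 6.988 for Dnajb6. The largest gap was that of Dnaja1, a farnesylated Hsp40, at 6.89, 6.98 and 6.93 in WT and 6.10, 5.67 and 5.75 under TG placebo. Its gap under NM-101 was of like size, -1.05 against -1.09, and it has 3 transcripts of different length in the table. Dnajb1 has 2 transcripts, Dnajb2 5 and Dnajb6 4, while Dnaja2 has 1. The part of the number and length of transcripts in the gaps of these genes was not tested. Under NM-101, 4 of the 6 were below all WT libraries, where 13.1% of all genes were, with a class median of -0.14. Both TG groups are set against the same 3 WT libraries.

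Among the small heat shock genes Hspb8, which works with Bag3 in sending damaged proteins to autophagy, separated the TG groups. It was at 3.99, 3.72 and 3.62 under placebo and at 4.42, 4.16 and 4.06 under NM-101, a mean of 3.77 ± 0.19 against 4.21 ± 0.19 (SD, n = 3). Every NM-101 library was above every placebo library, though NM-101 replicate 3 and placebo replicate 1 nearly met. The difference of 0.44 had a 95% interval from 0.13 to 0.75 and did not pass over all genes (limma adjusted p = 0.212). Without TG placebo replicate 1 it was 0.54 and passed (adjusted p = 0.0159), and under the other alternatives the adjusted p was 0.172 to 0.573. WT libraries were at 3.57, 3.45 and 3.85, near the placebo level. Bag3 itself was at 2.61, 2.40 and 2.23 under placebo and at 2.44, 2.60 and 2.47 under NM-101, and overlapped.

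Cryab, the alpha-B crystallin, varied more between libraries of 1 group than between groups. It was at 7.21, 6.14 and 6.16 under placebo and at 7.16, 6.31 and 6.42 under NM-101, with WT at 6.67, 6.65 and 6.97. In each TG group replicate 1 was the high library, about 1 log2 unit above the others under placebo. Oligodendrocyte markers had the same high library in each TG group, with medians of 6.49, 5.30 and 5.18 under placebo and 6.03, 5.44 and 5.65 under NM-101. In these bulk samples fewer cells of a type and less RNA per cell cannot be told apart, and the part of oligodendrocyte content in the Cryab values was not tested. The difference of 0.13 had a 95% interval from -0.79 to 1.04 (limma adjusted p = 0.901), the widest of the 33. It was 0.48 without TG placebo replicate 1, and it turned negative without TG placebo replicate 2 (-0.06), TG placebo replicate 3 (-0.05) or NM-101 replicate 1 (-0.14). Hspb1 was scarce, with 47, 72 and 36 counts in WT, and differed by -0.14 (adjusted p = 0.795).

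Hspe1 and Hspd1 encode the lid and the chamber of the mitochondrial chaperonin and are made from neighbouring genes on chromosome 1 that are read in opposite directions. Hspe1 spans 55088148 to 55091317 and Hspd1 55077833 to 55088243 (GRCm38.p6). The promoter table lists a start at 55088148 for Hspe1 and 2 for Hspd1, at 55087932, which is 216 bases from that of Hspe1, and at 55088243. The 30 bases below, at chr1:55088053-55088082 on the plus strand (RefSeq, GRCm38.p6), are shown because the promoter window of Hspe1 and that of the first Hspd1 start both hold them. The window of the other Hspd1 start does not and had no match. The capitals mark a run of 18 bases with 3 overlapping matches to the short form of the Hsf1 motif described further on, beginning 89 bases before the Hspe1 start and 144 before the first start of Hspd1 on its own strand.
Hspd1-Hspe1: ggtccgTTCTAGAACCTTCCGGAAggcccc

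The genes share this stretch, and their differences under NM-101 were 0.48 and 0.03. Hspe1 was at 6.87, 6.76 and 6.90 under placebo and at 7.41, 7.33 and 7.25 under NM-101, a mean of 6.85 ± 0.07 against 7.33 ± 0.08 (SD, n = 3). The lowest NM-101 library lay well above the highest placebo library. The difference of 0.48 ± 0.09 (SE) is 1.40-fold on the log2(FPKM + 1) scale, with a 95% interval from 0.28 to 0.68. Its limma adjusted p of 0.0823 missed the threshold. Without TG placebo replicate 1 the difference was 0.49 and passed (adjusted p = 0.00781). Under the other alternatives the adjusted p was 0.083 to 0.479. Hspd1 was at 6.36, 6.19 and 6.16 under placebo and at 6.30, 6.27 and 6.24 under NM-101. These overlapped, with a difference of 0.03 and a 95% interval from -0.17 to 0.24 (adjusted p = 0.880). Hspa9, the mitochondrial Hsp70, differed by 0.13 (adjusted p = 0.562).

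Within each library, Hspe1 minus Hspd1 was 0.39, 0.49 and 0.56 in WT, 0.51, 0.58 and 0.74 under TG placebo and 1.11, 1.06 and 1.01 under NM-101. All NM-101 libraries exceeded all others. The TG groups differed by 0.45, and the exact two-sided permutation test gave p = 0.10, the smallest that 3 against 3 allows, or 0.30 adjusted over the 3 pairs. For Hspa1b minus Hspa1a, the other pair, the same exact test gave p = 0.50 (0.70 adjusted). The pairs were chosen after their values were seen.

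The transcript of Hspe1 is the shortest of the 33, at 774 bases, and short transcripts as a whole were higher under NM-101. The median difference of all tested genes was 0.35 for 103 genes of up to 500 bases, 0.21 for 386 genes of 500 to 800 bases and 0.16 for 377 genes of 800 to 1000 bases. It was 0.07 from 1000 to 1500 bases and between -0.01 and 0.05 for longer ones. In the range that holds Hspe1, 33.7% of genes had all NM-101 libraries above all placebo libraries, against 9.03% from 2000 to 3000 bases, where 18 of the 33 lie, Hspd1 among them. With the length trend of each library removed, the difference of Hspe1 was 0.28 (limma adjusted p = 0.247). For Hspb8, of 1816 bases, it was 0.42 after that step, and for Tcp1 0.28. The deposited values divide by transcript length although the kit reads ends. Whether RNA quality or the library step had a part in the length pattern was not tested.

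**Figure D3:**
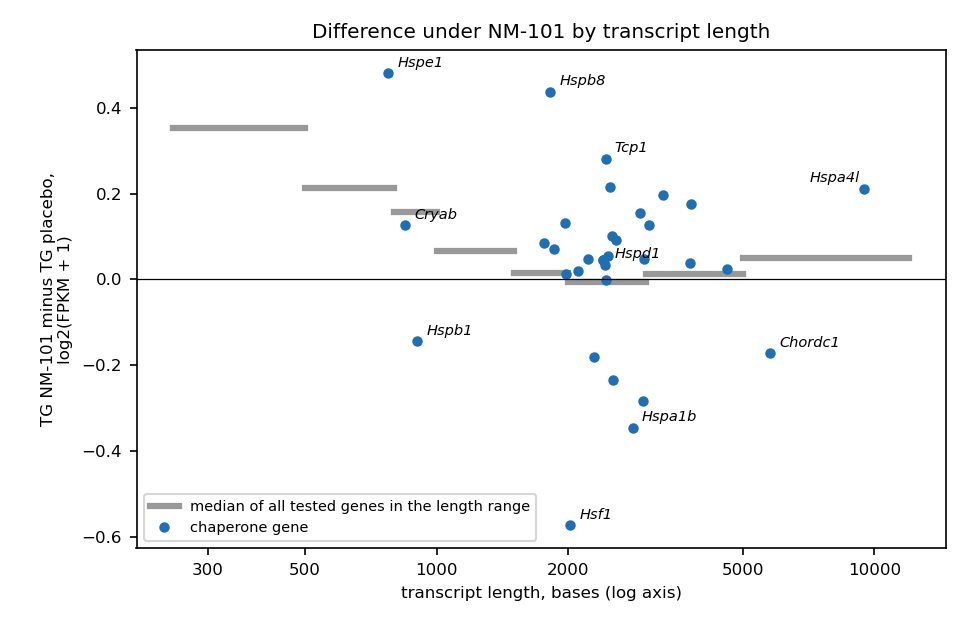
Difference between TG NM-101 and TG placebo (vertical axis, log2(FPKM + 1)) against transcript length in bases (horizontal log axis). Points are the 33 genes and grey bars the median of all tested genes in each length range. Hspe1, at 774 bases and 0.48, stands in a range whose median is 0.21, while Hspb8 and Tcp1 stand where the medians are 0.01 and -0.01.

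The CCT chaperonin is a ring of different subunits that folds actin and tubulin, and 7 of the subunits are among the 33. In WT they lay in a narrow band, from 5.88 for Cct4 to 6.78 for Cct5. The band ran from 5.91 for Cct3 to 6.70 for Cct5 under TG placebo, and from 5.92 to 6.77 for the same genes under NM-101. Tcp1, the founding subunit, was at 6.09, 6.00 and 5.90 under placebo and at 6.26, 6.30 and 6.27 under NM-101. Cct4 was at 6.06, 5.86 and 5.92 under placebo and at 6.16, 6.24 and 6.11 under NM-101. Both were separated, by differences of 0.28 (limma adjusted p = 0.206) and 0.22 (adjusted p = 0.320), neither of which passed.

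For the other 5 of these subunits the difference under NM-101 was smaller, from -0.003 for Cct7 to 0.13 for Cct2. The 7 subunits had a median difference of 0.07, with 6 of 7 above 0. Cct6a, a subunit of the ring that is not among the 33, was at 6.46, 6.34 and 6.34 under placebo and at 6.56, 6.67 and 6.70 under NM-101, separated by 0.27 (adjusted p = 0.228). Tcp1 was called only in the fit without TG placebo replicate 1, at 0.33 (limma adjusted p = 0.0254). The level of Tcp1 under NM-101 was close to WT, where it was at 6.46, 6.46 and 6.18. Against WT, Cct7, Cct8 and Tcp1 had all TG placebo libraries below all WT ones, and under NM-101 Cct8 did. Exons of 7 of the 33 overlap another gene in GENCODE M21, namely Tcp1, Cct7, Cct8, Cryab, Dnaja1, Dnajb6 and Hspa1a. Apart from a microRNA within Dnaja1 these lie on the opposite strand, and whether the counting used strand is not given in the sources used here.

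Hsf1, the factor that drives the heat shock response, had the largest negative difference. It was at 3.74, 3.57 and 3.97 under placebo and at 3.69, 3.02 and 2.85 under NM-101, a mean of 3.76 ± 0.20 against 3.19 ± 0.45 (SD, n = 3). NM-101 replicate 1 lay among the placebo libraries and replicates 2 and 3 below them. The difference of -0.57 had a 95% interval from -1.08 to -0.07 and did not pass (limma adjusted p = 0.283), and it stayed between -0.83 and -0.41 when 1 library was left out. WT libraries were at 3.07, 3.36 and 3.22, from 158, 262 and 198 counts. All TG placebo libraries were above all WT ones, by 0.54 in the means, while NM-101 and WT overlapped. The transcript level of Hsf1 says nothing of its activity, which depends on the protein's state.

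**Figure D4:**
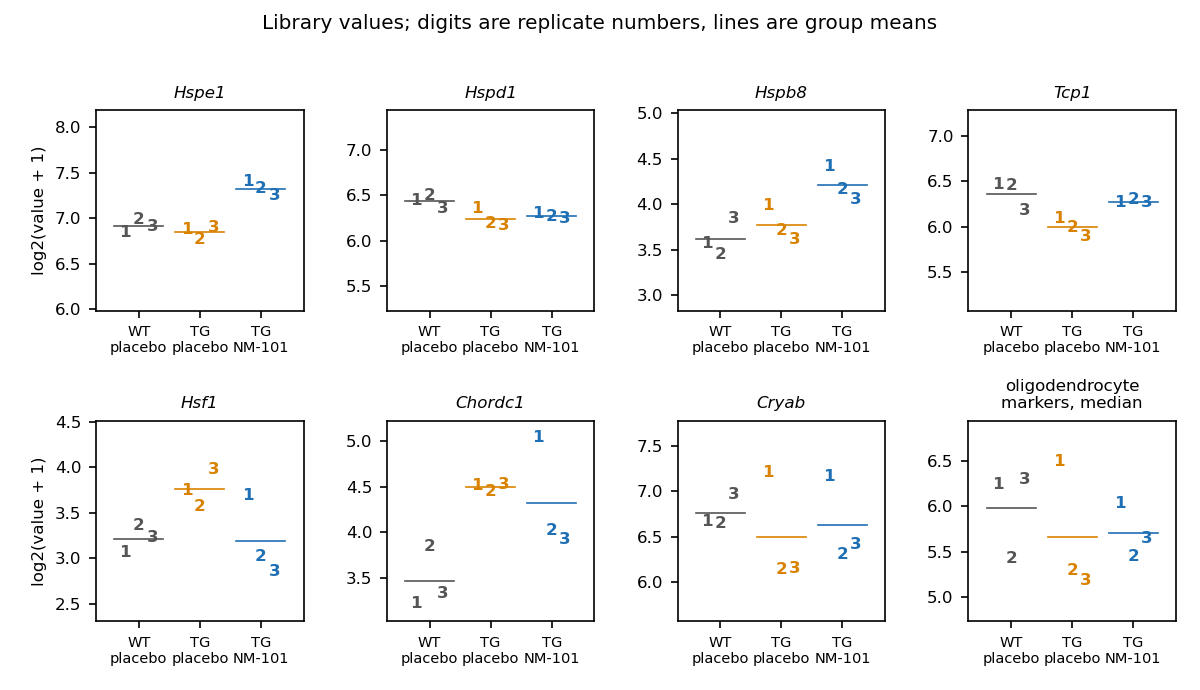
Level in each library (vertical axis, log2(value + 1), value in RPKM for WT and FPKM for TG) of 7 genes and the median of 14 oligodendrocyte markers. Digits are replicate numbers and lines group means. Hspe1, Hspb8 and Tcp1 separate TG NM-101 from TG placebo, Chordc1 is spread within NM-101, and in the TG groups Cryab and the oligodendrocyte markers are highest in replicate 1.

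Set against WT placebo, TG placebo had all libraries above all WT libraries for 7 of the 33, where 20.8% of all 12410 genes described did so. These were Hspa1a, Hspa1b, Hspa2, Hspa4l, Chordc1, Hsp90ab1 and Hsf1. It had all libraries below for 11, where 15.9% of all genes did so. These were 5 Hsp40 genes, Cct7, Cct8, Tcp1, Hsp90aa1, Hspa4 and Hspa9. The median of the 33 was -0.10 and that of all genes 0.05. It was -0.04 without WT replicate 2, -0.15 without TG placebo replicate 1 and -0.16 with median-ratio scaling. By class the medians were 0.47 for Hsp70 and Hsp110, 0.18 for the small heat shock genes with Bag3, -0.10 for Hsp90 and for CCT, -0.20 for the mitochondrial chaperones and -0.26 for Hsp40. The value for Hsp70 and Hsp110 was 0.27 over genes with 1 transcript, and that for the small heat shock genes with Bag3 came to 0.08 when TG placebo replicate 1 was left out and to 0.12 when WT replicate 2 was. Without TG placebo replicate 1, 7 of the 33 lay above WT, against 35.4% of all genes, and 17 below, against 24.8%.

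NM-101 libraries all lay above all WT libraries for 8 of the 33, where 23.5% of all genes did so, and below for 8, where 13.1% did so. Hspa2, Hspa4l, Chordc1 and Hsp90ab1 were above in both TG groups, and Bag3, Cct4, Hspb8 and Hspe1 under NM-101 but not under placebo. The median of the 33 was -0.03 and that of all genes 0.05, and it was 0.03 without NM-101 replicate 3 and 0.01 without WT replicate 2. Class medians ran from -0.14, for Hsp40 and the mitochondrial chaperones, to 0.29 for the small heat shock genes with Bag3, with 0.19 for Hsp70 and Hsp110. The groups share their WT libraries, and no test of any gene was made across the columns.

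Single libraries carried many of the 33 together. TG placebo replicate 1 was the highest of its group for 26 of the 33, or 78.8%, against 41.2% of all genes. In NM-101 replicate 1 was the highest for 19 and replicate 3 for 1, against 35.1% and 31.2% of all genes. In WT replicate 2 was the highest for 21, or 63.6%, against 34.0% of all genes. It was high for Hsph1 (6.46 against 6.18 and 6.29), Fkbp4 (6.27 against 5.90 and 5.89), Stip1, Dnajb1 and Chordc1. It was the lowest for Hspa1a, Hspa1b, Hspa2, Hspa9, Hsp90ab1, Hspb8 and Cryab. WT replicate 2 also had a low oligodendrocyte marker median of 5.42, against 6.24 and 6.29, and the part of cell content in this order was not tested.

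To see which promoters hold the heat shock element, the 250 bases before each RefSeq start were searched on both strands. Promoter windows were listed for 26 of the 33, with 36 windows in all, and not for Cct4, Cryab, Hsf1, Hsp90aa1, Hsp90ab1, Hspa8 and Hspa9. The full motif was GAANNTTCNNGAA or its reverse TTCNNGAANNTTC, and 0.466% of 32851 windows of that length in the genome held it. Among the 36 windows 4 held it, some of which share bases, and they belong to Dnajb6, Hspd1 and Hspe1. The shorter form, GAANNTTC or TTCNNGAA, is contained in the full motif. It was in 12.8% of all windows and in 14 of the 36, which belong to 12 of the 26 genes. Beside those 3 they were Cct2, Cct5, Dnaja1, Dnajb4, Fkbp4, Hspa1a, Hspa1b, Hspb1 and Hsph1. Between the TG groups, genes with a match ranged from -0.35 for Hspa1b to 0.48 for Hspe1, and a match says only that these letters are in the window.

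A wider list of 70 further chaperone and co-chaperone genes gave 64 that could be tested. It was drawn up by family with earlier results of these data known, so its counts only describe these genes. None passed in limma, 13 had an unadjusted p under 0.05, all with a positive difference, and 44 of the 64 were above 0, with a median of 0.07. Of all genes 14.8% had an unadjusted p under 0.05 and 55.5% were above 0. All NM-101 libraries were above all placebo libraries for 15 and below for 4 of the 64, where 13.6% and 5.98% of all genes were. Those with the largest separated differences were Pfdn4, Pfdn5 and the endoplasmic reticulum Hsp40 gene Dnajb9. Pfdn4 and Pfdn5 are subunits of prefoldin, which passes nascent actin and tubulin to CCT. Of the other prefoldin subunits listed, Pfdn2 (0.31) and Vbp1 (0.35) were separated, while Pfdn1 (0.04) and Pfdn6 (-0.09) overlapped. Pfdn4 was at 5.02, 4.61 and 4.89 under placebo and at 5.31, 5.49 and 5.68 under NM-101 (difference 0.65, adjusted p = 0.102). Pfdn5 was at 8.64, 8.48 and 8.60 under placebo and at 8.97, 9.27 and 9.16 under NM-101 (0.56, adjusted p = 0.0823). Dnajb9 differed by 0.46 (adjusted p = 0.113). The transcripts of Pfdn4 and Pfdn5 are short, at 919 and 1062 bases, in the range where all genes were higher on balance. That of Pfdn6 is shorter, at 796 bases. On the negative side were Lonp1, a mitochondrial protease, at -0.20 (adjusted p = 0.346), Hspa12a at -0.20 (0.337) and Unc45a, a myosin chaperone, at -0.18 (0.469). Without TG placebo replicate 1, 15 of the 64 passed, 14 higher and 1 lower, in a fit that called 17.8% of all genes, 9.6% in the higher direction.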

How the data were processed

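RNA from 9 mouse brain samples was sequenced with a 3′ end kit, per the labels' protocols. Bowtie2 and the build mm10 are named in the submitters' processing notes, without a role or version, and no source used here gives the counter or annotation. The deposited table gives the 3 WT columns as counts of whole reads per RefSeq transcript. The 6 TG columns are deposited as log2 values, which were read as log2(FPKM + 1). Over 9550 genes with 1 transcript their linear value rose with WT CPM at a log2 slope of 0.975 and fell with length at -0.905. Names came from a RefSeq table (GRCm38.p6), which matched 32390 of 33299 transcripts, and lengths from GENCODE M21.

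Linear TG values were added up over the transcripts of a gene and tested as log2(value + 1) with limma 3.58.1 (variance trend, robust) in R 4.3.3, on the 6 TG samples with no covariate. Genes needed a mean of at least 1, which left 12699, and p-values were Benjamini-Hochberg adjusted over all of them with a threshold of 0.05. A fold change on the log2(value + 1) scale understates that of low genes. The fit was tested on simulated data, where it recovered 69.7% of genes changed by 1 log2 unit and 12.9% of those changed by 0.5. Changes of 0.5 were thus mostly missed there. In the 5 simulations 21 unchanged genes were called. The noise was drawn for each gene alone, with no shift shared within a library. These rates are over all genes, and that of the 33 may differ. WT counts were described as CPM and as RPKM, with no test across columns. edgeR 4.0.16 gave alternative WT library sizes only. Alternatives were the pseudocount, the filter, median-ratio scaling, a replicate block, limma without trend, single transcripts, each library left out and, added after seeing the data, removal of the length trend. All 33 genes are named, and of the other chaperone genes the 3 largest separated differences in each direction. The members and lists were chosen with earlier results of these data known. Intervals in limma cover the spread between libraries only.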

Additional observations from a re-analysis of the deposited data

How the results depend on the processing

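The number of genes called for NM-101 against placebo, 17, was 4 with no filter on low values, 0 without genes at 0 in any sample, 4 with median-ratio scaling, 4 with limma without trend or robust shrinkage, and 3 with the length trend removed. It ran from 2 to 2262 when 1 library was left out, and 2262 came without TG placebo replicate 1. At an unadjusted p under 0.05 the limma fit as reported had 1884. Of the 33 chaperone genes 0 to 3 were called when 1 library was left out, and of the 64 other chaperone genes 0 to 15, with 0 of each under every other alternative. With the replicate number as a block, 3 genes and 0 of the 33 were called. The labels do not say whether the replicate numbers pair the samples. Same-numbered libraries had correlations of 0.045, -0.027 and -0.018 in their deviations over 12699 genes. Placebo replicate 2 correlated best with NM-101 replicate 3 (0.09). With 3 libraries in a group such correlations cannot settle whether samples were paired. Each transcript tested alone gave 0 calls among 44.

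Of the 33 genes, 19 kept their direction under all 13 alternatives and 14 did not, all of these with small differences or uneven libraries. With median-ratio scaling Hspa4 was at -0.0061, Stip1 at -0.0093 and Cct3 at -0.0175. With the length trend removed Hspa4 was at -0.0056 and Cryab at -0.0491. Leaving out 1 library gave -0.0233 to 0.0722 for Hspa4, -0.0343 to 0.0732 for Stip1, -0.0122 to 0.1117 for Fkbp4 and -0.528 to 0.032 for Chordc1. It gave -0.0472 to 0.1675 for Dnaja1, -0.0053 to 0.0796 for Dnajb1, -0.0246 to 0.1117 for Dnajb4, -0.379 to 0.0205 for Hspb1 and -0.1404 to 0.4797 for Cryab. It gave -0.0003 to 0.1902 for Bag3, -0.0022 to 0.0953 for Hspd1, -0.0235 to 0.034 for Cct3, -0.061 to 0.052 for Cct7 and -0.0068 to 0.1062 for Cct8.

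The median of the mitochondrial chaperones, NM-101 minus placebo, ran from 0.0738 to 0.2048 over the libraries left out. Against WT, the TG placebo median of Hsp70 and Hsp110 was 0.6037 with a pseudocount of 0.1, 0.2721 over genes with 1 transcript and 0.3524 to 0.545 over the libraries left out. For NM-101 minus WT, median-ratio scaling gave -0.2115 for Hsp40, -0.2112 for the mitochondrial chaperones, -0.0767 for CCT and -0.097 for all 33, and genes with 1 transcript gave 0.0263 for all 33. Leaving out 1 library gave 0.177 to 0.3563 for the small heat shock genes with Bag3, -0.1626 to -0.0585 for the mitochondrial chaperones and -0.0585 to 0.0288 for all 33. The cause of these shifts was not tested. The depth of the TG libraries is unknown, and Hspa1a, Hspa1b and Hspb1 had about 100 counts or fewer in each WT library.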

Other observations

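Of the 33 genes 8 had more than 1 transcript, and their gene values add these up. Cryab had 4, of which 3 were matched to the same length of 846 bases. Of these 3, the transcript with the most counts had 706, 858 and 902 in WT and lay at 6.67, 5.82 and 5.59 under TG placebo and at 6.82, 5.93 and 6.15 under NM-101. The next had 116, 277 and 337 counts and lay at 5.47, 3.15 and 4.39 under placebo and at 4.40, 3.83 and 3.76 under NM-101. Dnajb2, an Hsp40 gene known from neurons, had 5 transcripts. One of them, of 1823 bases, had 72, 0 and 107 counts in WT, was at 2.56 in TG placebo replicate 1 and at 0.02 and 0.003 in replicates 2 and 3, and was listed at 0 in all NM-101 libraries. Such jumps between transcripts of 1 gene were not seen in the summed values of Dnajb2, which lay between 4.83 and 5.23 in the TG libraries.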
